A study of Rattus norvegicus with 6 samples.

Results

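The genes described here encode the enzymes that turn glucose into pyruvate and lactate, together with the main glucose importer of the cell surface. The list named 10 genes: Slc2a1, Hk2, Pfkl, Aldoa, Tpi1, Pgk1, Pgam1, Eno1, Pkm and Ldha. A gene was taken where a probe set, the group of short probes that reads a transcript on the array, carried its symbol and no other. This gave 9 of the 10 genes, read by 11 of 31099 probe sets, out of 14217 genes with a single symbol on the array. The 1 probe set of Pkm was shared with a pseudogene in the annotation (2 symbols) and was not used. The cells were an immortalized rat keratinocyte line from dorsal skin of newborn male Sprague-Dawley rats, and keratinocytes are the main cell type of the epidermis. Replicate numbers follow the order of the deposited samples and pair none of them. The 3 unirradiated samples had no treatment, and the 3 irradiated samples had received 3 Gy of 56Fe ions at 1.01 GeV per nucleon, heavy charged particles of the kind met in space. Each sample was hybridised to 1 Affymetrix rat 230 2.0 array, and the study asked how gene expression and the cell cycle responded. The labels used here give neither the time from irradiation to RNA extraction nor whether replicates were separate cultures, so the spread between samples may be technical.

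Glycolysis splits glucose in the cytosol and gains ATP and NADH on the way to pyruvate. Glucose enters by a transporter, is trapped and committed by 2 kinase steps, is cut into triose phosphates, and is then carried through steps that pay back ATP. Proliferating keratinocytes in culture turn much of the pyruvate into lactate, which regenerates the NAD+ that the pathway needs. Many of these genes are known targets of the hypoxia-inducible factor HIF-1 and of the growth regulator Myc.

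Across the 9 genes, mean intensity was lower in irradiated cells each time, but no gene passed the test. The fitted changes ran from -0.46 (Hk2) to -0.10 (Pfkl) on the log2(intensity + 16) scale, with a median of -0.18. Of the 9 genes, 0 were called by limma at a Benjamini-Hochberg adjusted p under 0.05, and 3 had an unadjusted p under 0.05. Over all 18632 tested probe sets, 385 were called (2.07%), of which 280 were higher (1.50%) and 105 lower (0.564%) after irradiation. An unadjusted p under 0.05 was found for 13.3%, and together with a lower mean for 5.91%. The number of calls over all probe sets was 227 without unirradiated replicate 1, 229 without irradiated replicate 1 and 201 without irradiated replicate 2. The median change over all tested probe sets was 0.00, and 49.6% were below 0, against 9 of 9 members. With quantile normalization, which gives every array the same distribution of values, 0 of 9 members were called, 2 had an unadjusted p under 0.05 and 9 were still below 0, with a median of -0.11. Of all tested probe sets, 1.87% were then called, 13.0% had an unadjusted p under 0.05 and 51.8% were below 0.

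The DNA in front of these genes is shown as a description of the members. HIF-1 binds sites whose core is often ACGTG, the only form of it searched for, and Myc with its partner Max binds CACGTG. The window was 250 bases before and 50 after each annotated start, from RefSeq promoters of rat build GRCr8. It was searched for ACGTG on both strands, so for CACGT as well. CACGTG, which reads the same on both strands, contains both of these and was counted separately too. Promoters were found for 8 of the 9 members, 11 in all, with several starts for Aldoa and Eno1. ACGTG was present in 5 of the 11 (45.5%), of 5 genes, and in 19.3% of all 33469 promoters of this length. CACGTG was present in 1 of the 11, that of Ldha, and in 6.42% of all. The stretches before the start that hold a match are printed 5′ to 3′ on the strand of the gene, with the matching letters in capitals.
Slc2a1: gtcccgccccggACGTGgtcctcaggccc
Aldoa: tgtggctcgagtCACGTcctagcggggcg
Pgam1: ccctaattgcttACGTGcgctccgtgact
Ldha: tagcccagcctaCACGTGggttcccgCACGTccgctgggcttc
These stretches lie at chr5:138002459-138002487 (plus strand) for Slc2a1, chr1:190836953-190836981 (minus strand) for Aldoa, chr1:250672999-250673027 (plus strand) for Pgam1 and chr1:106507993-106508035 (plus strand) for Ldha. The first matching base lies 51, 192, 141 and 87 bases before the start, in that order. The match of Aldoa lies in 1 of its 3 promoters, and the others held none. The match of Eno1, in 1 of its 2 promoters, lay after the start and is not printed. A match is a run of letters. No binding was measured, and no relation of these letters to the array values was tested.

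Uptake was read through Slc2a1, which encodes GLUT1, the glucose transporter that supplies most proliferating cells. Its intensity was 1323, 1046 and 1641 in unirradiated replicates 1, 2 and 3, and 1054, 1102 and 1184 in the irradiated ones. The groups overlapped, since unirradiated replicate 2 lay below every irradiated array while unirradiated replicate 3 was the highest of the 6. The means were 1336 ± 298 and 1113 ± 65.5 (SD, n = 3 each). The log2 change was -0.24 ± 0.13 (SE), with a 95% confidence interval from -0.52 to 0.04 and a limma adjusted p = 0.469.

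Hk2 encodes hexokinase 2, which phosphorylates glucose and so keeps it in the cell. It was the dimmest member, at 94.9, 100.4 and 179 in unirradiated replicates 1, 2 and 3, and at 73.4, 87.6 and 88.3 after irradiation. The groups did not overlap, although the gap between them was small beside the distance of unirradiated replicate 3 from its own group. Hk2 had the largest change of the 9 on the log2 scale, -0.46 ± 0.19 (SE; 95% confidence interval from -0.88 to -0.04), and did not pass (limma adjusted p = 0.315). Without unirradiated replicate 3 its change was -0.20.

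Pfkl, the liver-type subunit of phosphofructokinase, which makes the committing step of the pathway, had the smallest change. Its intensity was 421, 340.5 and 454 without irradiation and 386, 379.5 and 358 with it, so the irradiated values lay inside the unirradiated range. The log2 change was -0.10, with a 95% confidence interval from -0.33 to 0.13.

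The splitting of the sugar was read through Aldoa and Tpi1. Aldolase A (Aldoa) cuts fructose bisphosphate into triose phosphates, and was at 3617, 3151 and 3840 without and 3119, 3030.0 and 3348 with irradiation. Triose phosphate isomerase (Tpi1), which interconverts them, was at 1450.2, 1000.5 and 1406 without and 1042, 1090.4 and 1295 with irradiation. The groups overlapped in both genes through unirradiated replicate 2, which lay among the irradiated values for Aldoa and below all of them for Tpi1. The other unirradiated arrays lay above the irradiated ones. The log2 changes were -0.16 for Aldoa (95% confidence interval from -0.34 to 0.03) and -0.16 for Tpi1 (from -0.44 to 0.13).

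Phosphoglycerate kinase 1 (Pgk1), the first ATP-yielding enzyme, was at 1327, 1149 and 1702 without irradiation and at 1028, 1073 and 1238 with it. The groups overlapped only through unirradiated replicate 2 and irradiated replicate 3. The log2 change was -0.30 ± 0.12 (SE; 95% confidence interval from -0.58 to -0.03; limma adjusted p = 0.303). That probe set belongs to a class that can match more than 1 transcript. A second probe set of Pgk1, with 1170.0, 870.0 and 997 without and 880.4, 938 and 1060.5 with irradiation, had a change of -0.07 (from -0.31 to 0.17). The groups overlapped widely there, and its highest array was unirradiated replicate 1, not 3. The remaining probe set of the gene had a mean under the filter on low values and was not tested.

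Pgam1, phosphoglycerate mutase 1, moves the phosphate group within phosphoglycerate. It was at 3428, 3127 and 3238 without and 2874, 2710.4 and 3268 with irradiation, and irradiated replicate 3 lay inside the unirradiated range. The log2 change was -0.15 (95% confidence interval from -0.33 to 0.03).

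Enolase 1 (Eno1), which makes phosphoenolpyruvate, was at 6369, 6282 and 7745 without irradiation and at 6098, 5386 and 5882 with it. The groups did not overlap. The means were 6799 ± 821 and 5789 ± 365 (SD, n = 3 each), a 1.17-fold difference. The log2 change was -0.23 ± 0.09 (SE; 95% confidence interval from -0.42 to -0.03), and no other member had a lower limma adjusted p than its 0.285. Groups that do not overlap were found for 2 of 9 members, Hk2 and Eno1, both lower after irradiation. They were found for 19.1% of all tested probe sets, and for 8.91% with the irradiated group lower.

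Ldha encodes the lactate dehydrogenase subunit that favours making lactate from pyruvate. It was at 4167, 3798 and 4812 without irradiation and at 3814, 3498 and 3949 with it. Again unirradiated replicate 2 lay among the irradiated arrays and unirradiated replicate 3 was highest. The log2 change was -0.18 (95% confidence interval from -0.37 to 0.02; limma adjusted p = 0.441).

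**Figure D1:**
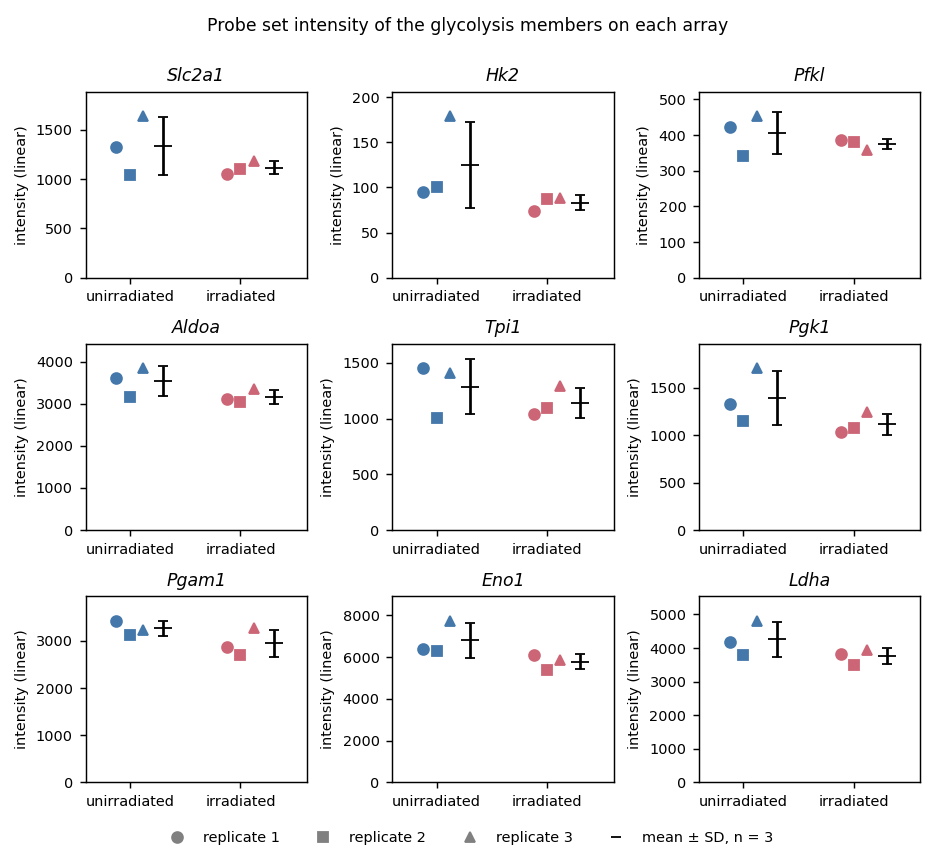
Probe set intensity (linear scale, from 0) of the 9 members in 3 unirradiated (blue) and 3 irradiated (red) samples, with marker shape giving the replicate number and the bar the mean ± SD. The highest point is unirradiated replicate 3 (blue triangle) in 7 of 9 panels, and the irradiated points are closer together than the unirradiated ones in most.

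The members differed more between the unirradiated samples than between the irradiated ones. The SD of the log2 values was larger in the unirradiated group for 8 of 9 members, Pgam1 being the exception, and for 50.8% of all tested probe sets. Its median over the members was 0.21 without and 0.09 with irradiation, while over all tested probe sets it was 0.14 in both groups. Unirradiated replicate 3 was the highest of the 6 arrays for 7 members, for 19.4% of all tested probe sets, and for 23.8% of those at or above the 90th percentile of mean intensity. The exceptions were Tpi1 and Pgam1, highest in unirradiated replicate 1. Within the unirradiated group, replicate 2 was the lowest for 8 members, and how often this held over all tested probe sets was not counted.

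As a mean over the 9 members, relative to the unirradiated mean, the log2 level was -0.01, -0.21 and 0.22 in unirradiated replicates 1, 2 and 3. It was -0.26, -0.26 and -0.13 in the irradiated arrays. The distance between unirradiated replicates 2 and 3 was thus larger than that between the group means, and unirradiated replicate 2 lay within the irradiated range. After quantile normalization the values were -0.02, -0.19 and 0.21 without and -0.22, -0.16 and -0.09 with irradiation, so unirradiated replicates 2 and 3 stood about as far apart.

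The size of the changes depended on which unirradiated arrays were kept. Without unirradiated replicate 3 the 9 changes ran from -0.20 to -0.02, with a median of -0.09, and 0 had an unadjusted p under 0.05. Without unirradiated replicate 2 they ran from -0.57 to -0.18, with a median of -0.28, and 7 had an unadjusted p under 0.05. Of these, Slc2a1 had the smallest limma adjusted p, 0.118. The number with an unadjusted p under 0.05 was 1 without irradiated replicate 1, 1 without irradiated replicate 2, 4 without irradiated replicate 3 and 3 without unirradiated replicate 1. Tpi1 was at -0.06 without unirradiated replicate 1, -0.09 without irradiated replicate 1 and -0.25 without irradiated replicate 3, and Pgam1 was at -0.09 without irradiated replicate 2. The share of all tested probe sets with an unadjusted p under 0.05 was not counted in these 6 fits. With all arrays it was 13.3%, so the counts of members cannot be set against their own background. In each of these 6 fits limma called 0 members, against 1.08% to 1.54% of all tested probe sets, and each of the 9 changes stayed below 0.

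**Figure D2:**
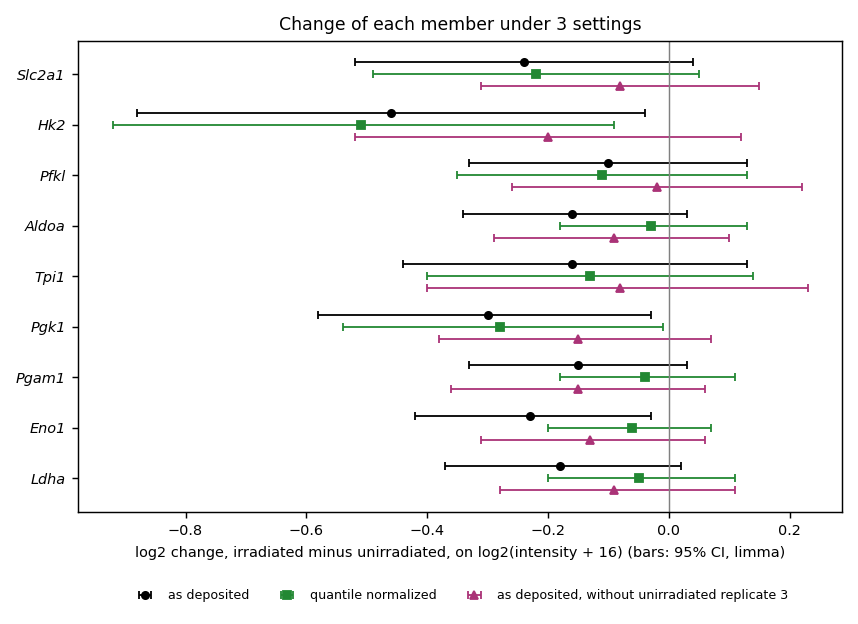
Log2 change (irradiated minus unirradiated, on log2(intensity + 16)) of each member, with limma 95% confidence intervals, as deposited (black), quantile normalized (green) and as deposited without unirradiated replicate 3 (purple). As deposited, 6 of the 9 intervals hold 0, and without unirradiated replicate 3 the changes lie between -0.20 and -0.02.

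The brightest probe sets of the array also had lower means after irradiation, as deposited. Of the 9, 7 were at or above the 90th percentile of mean intensity, and Aldoa, Pgam1, Eno1 and Ldha were at or above the 99th. Among 3104 probe sets from the 90th percentile up, 65.9% had a change below 0, with a median of -0.05. Among 311 from the 99th percentile up, 93.6% did, with a median of -0.13. Limma called 3.70% and 2.89% of them. After quantile normalization these shares were 54.3% and 50.5%, with medians of -0.01 and -0.00.

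The 4 brightest members were close to 0 once the arrays had the same distribution. With quantile normalization the change of Aldoa was -0.03, of Pgam1 -0.04, of Ldha -0.05 and of Eno1 -0.06, each with a 95% confidence interval that holds 0. The less bright members stayed close to their values as deposited: Hk2 was at -0.51, Pgk1 at -0.28, Slc2a1 at -0.22, Tpi1 at -0.13 and Pfkl at -0.11. The interval excluded 0 for Hk2 (from -0.92 to -0.09) and Pgk1 (from -0.54 to -0.01), with limma adjusted p = 0.268 and 0.354. By the second probe set of Pgk1 the change was -0.05 (from -0.28 to 0.18). In a setting chosen after seeing the data, quantile normalization without unirradiated replicate 3, Hk2 was at -0.25, Pgk1 at -0.13 and Slc2a1 at -0.06. There Aldoa (0.03), Eno1 (0.01) and Ldha (0.04) turned to the other side of 0.

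**Figure D3:**
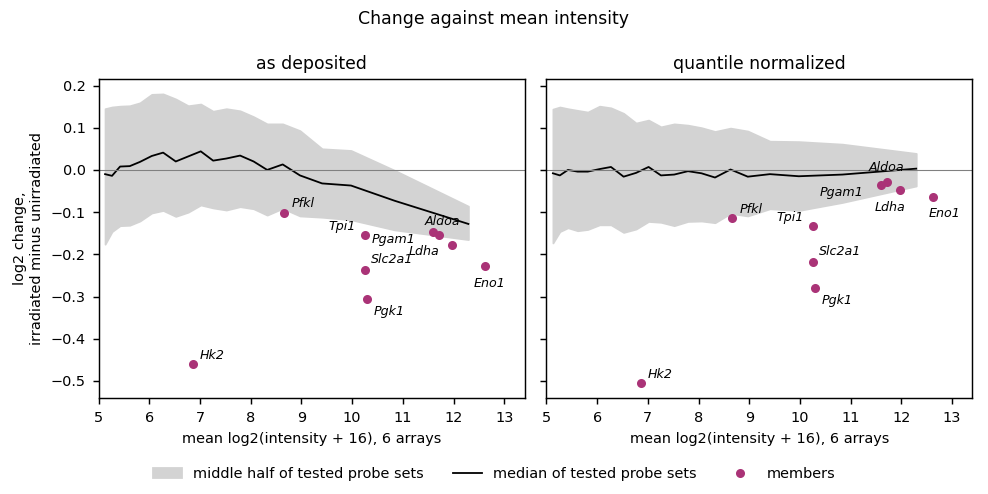
Log2 change (irradiated minus unirradiated) against mean log2(intensity + 16) over 6 arrays, as deposited (left) and quantile normalized (right), for the 9 members (purple) over the median (line) and middle 50% (grey) of tested probe sets in bins of intensity. As deposited the line falls below 0 at the bright end, where Aldoa, Pgam1, Eno1 and Ldha lie, and after quantile normalization it stays near 0 while Hk2, Pgk1 and Slc2a1 lie farthest below the grey band and Tpi1, Pfkl and Eno1 lie closer to its lower edge.

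The other enzymes of the pathway went both ways. Of 9 tested, 0 were called by limma, 1 had an unadjusted p under 0.05, and 3 were below 0 and 6 above, with a median of 0.04. Hk1, the hexokinase of most tissues, was at 333, 318 and 306 without and 402, 385 and 348 with irradiation, without overlap and opposite to Hk2. Its log2 change was 0.24 (95% confidence interval from 0.03 to 0.44; limma adjusted p = 0.28). Aldoc, the aldolase known from brain, had a change of -0.38 and the same order of unirradiated arrays as most members, at 126, 91.8 and 205. Its change was -0.10 without unirradiated replicate 3 and -0.62 without unirradiated replicate 2. Pfkp, the platelet-type phosphofructokinase, had a change of -0.15, and Bpgm, which makes bisphosphoglycerate, of 0.20 (0.41 by its dimmest tested probe set). Gapdh was read by control probe sets outside the test. Its middle probe set was at 5617, 5122 and 6237 without and 5476, 4719 and 5099 with irradiation, with overlap between the groups (exact permutation test, two-sided p = 0.20). Its 3′ probe set was at 5688, 5243 and 5393 without and 5048, 4563 and 4694 with irradiation, without overlap (exact permutation test, two-sided p = 0.10; with 3 arrays a group it cannot be lower). Its 5′ probe set was at 4343, 3905 and 4151 without and 3838, 3536 and 4301 with irradiation, with overlap (exact permutation test, two-sided p = 0.40). Like the 9 members, all 3 Gapdh probe sets had a lower mean after irradiation. Their intensities lay within the range of Aldoa, Pgam1, Eno1 and Ldha. Among the 311 brightest probe sets, 93.6% had a change below 0 as deposited and 50.5% after quantile normalization. Whether the lower Gapdh means remain after quantile normalization was not tested.

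**Figure D4:**
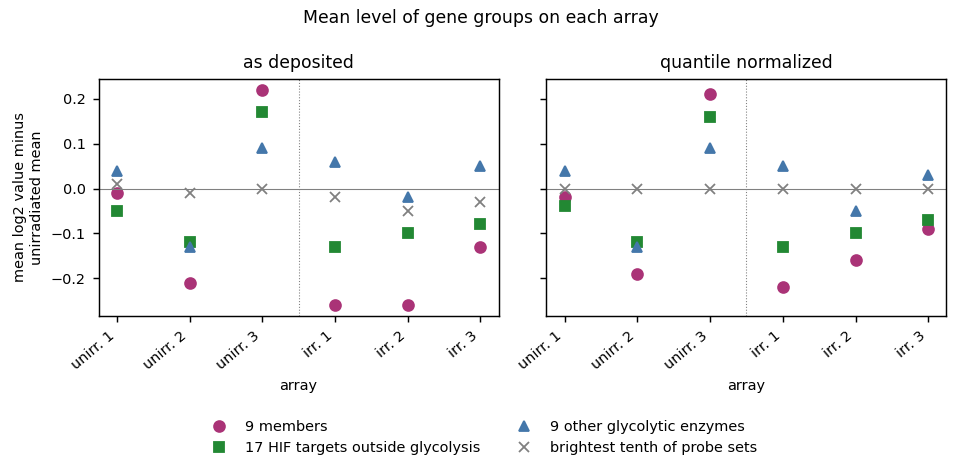
Mean log2 level on each of the 6 arrays relative to the unirradiated mean, as deposited (left) and quantile normalized (right), for the 9 members, 17 other HIF target genes, 9 other glycolytic enzymes and the probe sets from the 90th percentile of intensity up. The members stand at -0.21 in unirradiated replicate 2 and 0.22 in replicate 3, as deposited, while the bright probe sets stay near 0 in the unirradiated arrays.

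Among 7 tested transporters of glucose and lactate, limma called 0, 2 had an unadjusted p under 0.05, and 5 were below 0. Slc2a5, which encodes the fructose transporter GLUT5, was at 243, 396 and 299.7 without and 173, 195 and 220 with irradiation, without overlap. Its log2 change was -0.61 ± 0.15 (SE; 95% confidence interval from -0.95 to -0.28; limma adjusted p = 0.0639). Slc2a5 passed the threshold in 3 of 19 other settings. These were median centring (limma adjusted p = 0.0468), leaving out unirradiated replicate 1 (0.0247) and averaging probe sets by gene (0.0419). It did not pass with quantile normalization (0.0579), without a filter on low values (0.182) or with any other 1 array left out (up to 0.206). Slc2a8, the intracellular hexose transporter GLUT8, had a change of 0.28, and its groups did not overlap. The lactate transporters Slc16a1 and Slc16a3 were at -0.16 (-0.10 without irradiated replicate 1) and -0.18, also without overlap and with limma adjusted p = 0.429 and 0.404.

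The enzymes that set the rate of glycolysis or the fate of pyruvate went both ways. Of 11 tested, 0 were called by limma, 3 had an unadjusted p under 0.05, and 5 were below 0. Pfkfb1, an isozyme that makes and removes the phosphofructokinase activator fructose 2,6-bisphosphate, was dim, at 36.1, 34.1 and 30.5 without and 60.9, 55.4 and 64.3 with irradiation. Its log2 change was 0.62 ± 0.15 (SE; 95% confidence interval from 0.30 to 0.94; limma adjusted p = 0.0515). Pfkfb1 passed in 4 of the 18 other settings that gave it a value. These were a pseudocount of 64 (limma adjusted p = 0.0478), no intensity trend (0.0379), robust variances (0.045) and probe sets averaged by gene (0.0209). It did not pass with quantile normalization (0.0654), without a filter on low values (0.154) or with any 1 array left out (up to 0.151). Txnip, an inhibitor of glucose uptake, had a change of -0.24, and -0.12 with quantile normalization. Pdp2, a phosphatase that activates pyruvate dehydrogenase, was at -0.23 (-0.15 by its dimmest tested probe set), and the opposing kinase gene Pdk3 at 0.16.

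In the branches off the pathway 1 gene rose, Pgm2, which acts on pentose and hexose phosphates. It went from 113, 126 and 144 to 203, 184 and 203, or by 0.57 ± 0.12 (SE) on the log2 scale, which limma called at an adjusted p = 0.0237. It was the 1 called of 14 tested genes of glycogen, hexosamine and serine metabolism, whose median was 0.01. Its call ended without any 1 array but unirradiated replicate 3, with limma adjusted p up to 0.112, without a filter on low values (0.0623) and without the intensity trend (0.072). Of 7 tested genes of the pentose phosphate pathway, limma called 0, 2 had an unadjusted p under 0.05 and 6 were below 0, with a median of -0.12. Rpia, of the non-oxidative branch, was at -0.30 and transaldolase (Taldo1) at -0.19, both without overlap. By its dimmest tested probe set Rpia was at -0.08, and with its probe sets averaged at -0.19, while Taldo1 was at -0.11 with quantile normalization. Of 22 tested genes of pyruvate dehydrogenase and the TCA cycle, limma called 0, 2 had an unadjusted p under 0.05 and 13 were below 0, with a median of -0.00. The lowest p in that list was that of the mitochondrial pyruvate carrier gene Mpc2, at -0.31 (limma adjusted p = 0.164).

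Of 17 tested regulators of glycolysis, 12 were below 0, with a median of -0.04, and 4 had an unadjusted p under 0.05. Limma called 1 of the 17, Myc, a driver of growth and metabolism. It was at 1131, 1197 and 1123 without and 798, 835 and 769 with irradiation, without overlap. Myc fell by 0.51 on the log2 scale (limma adjusted p = 0.00328, and 0.0539 without the intensity trend). The groups also did not overlap for Max (-0.20), Akt1 (-0.17) and Epas1 (0.30), named after their values were seen. These did not pass (limma adjusted p = 0.278, 0.327 and 0.29). Hif1a, which encodes the oxygen-regulated subunit of HIF-1, was at -0.02, and its partner gene Arnt at 0.01, both named after their values were seen. Regulation of HIF-1 is mostly at the protein level, which was not measured. Of 17 tested HIF targets outside glycolysis 1 fell, Ddit4, an inhibitor of the growth kinase mTORC1. It was at 1605, 1516 and 1685 without and 1217, 1263 and 1165 with irradiation, and fell by 0.39 on the log2 scale (limma adjusted p = 0.0166). The call of Ddit4 ended without the intensity trend (0.13) and without any 1 array but unirradiated replicate 2 and irradiated replicate 2 (up to 0.076). In this list 13 of 17 were below 0 and 4 above, with a median of -0.11, and 3 had an unadjusted p under 0.05. Their mean level, relative to the unirradiated mean, was -0.05, -0.12 and 0.17 in unirradiated replicates 1, 2 and 3 and -0.13, -0.10 and -0.08 after irradiation. Of the 17, 10 were highest in unirradiated replicate 3. Ndrg1, for example, was at 2544, 1713 and 3261 without and 1867, 2289 and 2086 with irradiation. Loxl2, a dim gene, went the other way, from 15.7, 20.3 and 26.8 to 42.7, 43.8 and 34.7, without overlap. Its log2 change was 0.62 (limma adjusted p = 0.112). Ndrg1 and Loxl2 were picked out after their values were seen.

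**Figure D5:**
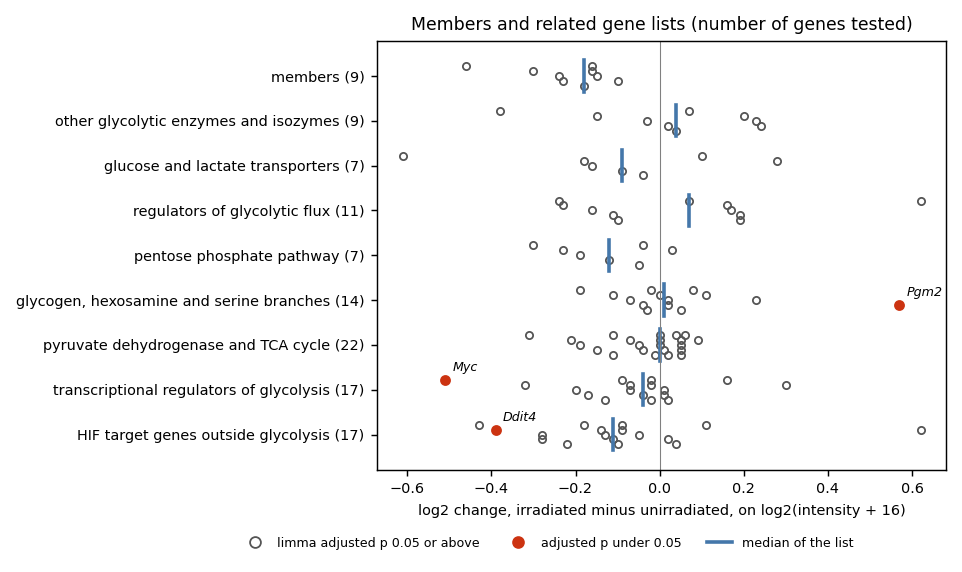
Log2 change (irradiated minus unirradiated) of each tested gene in the members and 8 related lists, with called genes filled in red, the others open and the median of each list as a blue line. The 9 members all lie below 0 with no call, while Pgm2 (0.57), Myc (-0.51) and Ddit4 (-0.39) are the called genes of the other lists.

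Markers of cell identity and RNA quality were compared beside these values. The summed intensity of 14 measured keratinocyte markers was 34809 to 40138 without and 28786 to 31964 with irradiation, without overlap. Of the 14, 5 fell (Krt14, Krt15, Krt17, Tp63 and Sfn, named after their values were seen), and 11 were highest in unirradiated replicate 3. With quantile normalization 4 of the 14 were called, with all probe sets tested 1, and with variances fitted without the intensity trend 0. With 1 array left out, the number called was 1 without unirradiated replicate 1, 2 without unirradiated replicate 3, irradiated replicate 1 or irradiated replicate 3, and 3 without unirradiated or irradiated replicate 2. Tp63, a regulator of the basal keratinocyte state, was among them in each of these 6 fits. The part of this shift in the values of the members was not tested. The summed intensity of 8 fibroblast markers was 446 to 515 without and 371 to 401 with irradiation, and 4 of the 8, Col1a2, Pdgfrb, Dcn and Lum, had a mean under 10. Of the 2 fibroblast markers tested, Col3a1, which gave most of the sum, fell by 0.46 on the log2 scale (limma adjusted p = 0.0271). Col1a1 had a change of 0.65 the other way (limma adjusted p = 0.0826), from 21.1, 14.1 and 16.8 to 40.2, 36.2 and 31.8, without overlap. The sum of 9 muscle markers was 996 to 1437 and 976 to 1156, nearly all of it from Myh1. The sums were 29.7 to 59.0 and 25 to 42.3 for 4 endothelial markers, 46.9 to 64 and 52.4 to 68.3 for 5 immune markers, and 86.7 to 99.8 and 58.3 to 74.6 for 6 melanocyte markers. Among these, Pecam1 and Kdr of endothelial cells, Ptprc, Cd3e and Itgam of immune cells, and Tyr, Mlana and Tyrp1 of melanocytes had a mean under 10. In such bulk samples, fewer cells of a type and less RNA per cell cannot be told apart. The ratio of the 3′ to the 5′ control probe set of Gapdh, a measure of RNA integrity, was 1.30 to 1.34 without irradiation and 1.32, 1.29 and 1.09 with it (exact permutation test, two-sided p = 0.30). For actin, the corresponding ratio was 1.07, 1.02 and 0.85 in unirradiated replicates 1, 2 and 3. In irradiated replicates 1, 2 and 3 it was 0.92, 0.94 and 1.04 (two-sided p = 0.90 by exact permutation). Unirradiated replicate 3 thus had the lowest actin ratio of the 6 arrays. Between pairs of arrays the correlation of the log2 values lay at 0.984 to 0.988 within and 0.980 to 0.984 between groups.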

How the data were processed

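The authors deposited 1 linear intensity per probe set and array, and the groups came from the source names in the labels. The submitters' design text names BRB ArrayTools 3.3.0; the summary method is not given in the sources used here. Means after trimming 2% at each end were 150.04 to 150.05 on the 6 arrays, so arrays had been scaled alike. After leaving out 57 control probe sets, those at or above the 40th percentile of mean intensity were tested (18632) as log2(intensity + 16), a scale that understates changes of dim genes. Models were fitted with limma 3.58.1 (R 4.3.3, intensity trend, two-sided) and p-values adjusted over all tested probe sets.

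A gene was read by its brightest single-symbol probe set; the annotated symbols of the 9 members matched RefSeq by Entrez ID. Related genes are named where called, otherwise up to 4 per list by smallest p, and Gapdh. Outside this rule, Hif1a, Arnt, Max, Akt1, Epas1, Ndrg1, Loxl2 and cell type markers were named. Members and lists were chosen with earlier results of these data known. With 6 arrays, which limit the precision, SEs of log2 changes had a median of 0.11 for members and 0.14 over all tested probe sets.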

Additional observations from a re-analysis of the deposited data

How the results depend on the processing

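The alternatives were quantile, median and cyclic loess normalization, pseudocounts of 1 and 64, a floor of 10, a filter at the 60th percentile or none, other variance models, other uses of a gene's probe sets and leaving out each array. Limma called 0 of the 9 members in every one, and their changes stayed below 0 in all 18 planned ones, with medians from -0.28 to -0.09. In the setting added after seeing the data, quantile normalization without unirradiated replicate 3, the changes of Aldoa, Eno1 and Ldha were 0.03, 0.01 and 0.04, and the median was -0.04. Calls over all probe sets fell from 385 to 223 without a filter and to 170 without the intensity trend, and were 201 to 286 with 1 array left out, where fewer arrays were fitted. No paired analysis was run. The replicate numbers used here only name samples in deposited order, and the labels give the groups no numbers in common. Whether samples of the groups were matched is not stated in the labels. Groups of 3 and 1 array per sample limit what could be detected.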
